A study of Arabidopsis thaliana with 24 samples.

Results

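The SAUR (small auxin up RNA) genes form a large family of short plant genes, many of which are switched on within minutes of auxin treatment. Their proteins are small and short-lived, and several inhibit PP2C.D phosphatases, which keeps plasma membrane H+-ATPases active, acidifies the cell wall and lets cells expand. In seedlings they are known for growth of hypocotyls, petioles and cotyledons under the control of auxin, light, brassinosteroids and warmth. The 44 SAUR loci described here were taken as a given list of gene identifiers, among the 32833 genes of the deposited table, and all 44 were found in it. That list was chosen with earlier results of these data known, and it leaves out 35 other loci annotated with the SAUR name. Of the 44, 43 passed the filter on low counts and were tested. The exception, SAUR2, had 0 counts in every cold library.

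RNA of whole seedlings of Arabidopsis thaliana, all in the accession Col-0 and raised on MS medium, was sequenced in 6 groups of 4 libraries. The groups were uap1-1 cold, uap1-2 cold, WT cold, uap1-1 control, uap1-2 control and WT control, where cold means 24 h at 4 °C and control means continued growth at standard temperature. Both mutant lines carry a T-DNA insertion in UAP1, named in the series title as a splicing factor, and are homozygous; WT is Col-0. The design text gives 11-day-old seedlings at the start of the cold and 12 days at harvest, whereas the extraction protocol speaks of 10-day-old seedlings. The labels call the 4 libraries of each group independent biological replicates. No gene is named UAP1 in the table, so the mutated gene was not checked.

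Library totals lay between 19289385 and 25501547 counts. The root markers and the shoot and leaf markers that were looked up, 10 of each, were present in all 6 groups. The summed level of the root markers was 28.0 to 44.9 TMM-scaled FPKM in cold libraries, against 23.0 to 40.8 in control libraries, that of the shoot and leaf markers was 8310 to 19700 in cold libraries, against 7730 to 19100 in control libraries, and the 5 flower genes summed to at most 4.69 in any library. Such sums can hide single markers. In the fit described below, 3 root markers were called higher in the cold in uap1-2 and WT, and 1 higher and 2 lower in uap1-1. Of the shoot and leaf markers, 3 were called higher in each genotype, and 1 lower in uap1-2 and WT. Of all genes tested, 25.8% to 26.7% were called higher and 26.0% to 29.2% lower. 3 libraries stood apart for the SAUR genes. WT control replicate 3 had the lowest level of its group for 35 of the 43 tested members, WT cold replicate 4 for 32, and uap1-1 control replicate 2 had the highest of its group for 39. Counts or medians of the members for cold, for mutant against WT and for the difference of cold responses are given with and without them. Medians by tandem group and by motif include them.

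Most of the 43 tested members were lower in the cold in every genotype. Because the list was chosen with earlier results of these data known, its excess over all genes is no test of the SAUR family. The other tested SAUR loci, described further on, fell less as a set. Levels are FPKM recomputed from the deposited counts with exonic lengths and library sizes scaled by TMM, and a change is the log2 fold change of cold over control in edgeR's fit, called at an adjusted p under 0.05 (quasi-likelihood test, Benjamini-Hochberg adjustment over all 21428 genes tested). In uap1-1, 30 of the 43 tested members fell and 5 rose, where 29.2% of all genes tested fell and 26.7% rose. In uap1-2, 29 fell and 5 rose, against a background of 26.0% and 26.5%. In WT, 30 fell and 4 rose, against 28.4% and 25.8%.

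The falls were also deep. At least 2-fold lower calls were made for 29 members in uap1-1, 27 in uap1-2 and 29 in WT, where 16.7%, 13.8% and 15.7% of all genes tested met that rule in the same genotypes. The median log2 fold change of the 43 members was -1.70 in uap1-1, -1.69 in uap1-2 and -1.74 in WT, and that of all genes tested was -0.07, -0.01 and -0.06. With the genes at 0 counts (SAUR3 in both mutants and SAUR5 in uap1-1) set at their bounds, these member medians were unchanged. They could not have moved, since those bounds lie far below the medians. All libraries of the cold group lay below all control libraries for 29 members in uap1-1, 28 in uap1-2 and 25 in WT (24.9%, 23.9% and 22.4% of genes tested). Without uap1-1 control replicate 2, 26 members fell and 6 rose in uap1-1, with a median of -1.60. In WT, 31 fell without control replicate 3 (median -1.98) and 29 without cold replicate 4 (median -1.61). With libraries scaled by their totals alone, the median of all genes tested moved to -0.50, -0.20 and -0.27 in uap1-1, uap1-2 and WT, the member medians were -2.10, -1.89 and -1.91, and 25.8%, 37.5% and 35.4% of all calls were higher, against 47.8%, 50.5% and 47.6% with TMM. In whole seedlings, fewer cells of a type and less RNA per cell cannot be told apart.

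The summed level of all 44 genes was lower in most cold libraries than in any control library of the same genotype. It was 331.8, 231.3, 272.1 and 280.5 TMM-scaled FPKM in uap1-1 cold libraries, against 394.9, 684.1, 454.8 and 433.3 in uap1-1 control libraries. In uap1-2 it was 324.7, 217.6, 236.9 and 253.6 in the cold, against 546.2, 510.8, 627.3 and 455.8 under control conditions. In WT it was 292.5, 292, 336.1 and 167.8 in the cold, against 746.3, 750.1, 329.2 and 491.1 under control conditions. The groups did not overlap in either mutant, and in WT they met only where control replicate 3 lay below cold replicate 3. As a share of all counts, the 44 genes took 0.0155% to 0.0282% of a cold library, against 0.0358% to 0.0675% of a control library.

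**Figure D1:**
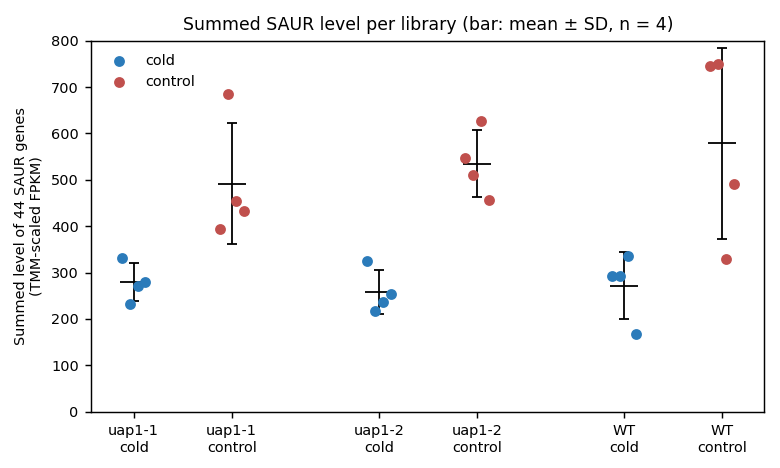
Summed level of the 44 SAUR genes in each library (TMM-scaled FPKM, y axis) by genotype and condition, with points for libraries and bars for the mean ± SD of 4. Cold libraries lie between 167.8 and 336.1, and control libraries between 329.2 and 750.1.

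The same members were called lower in uap1-1, uap1-2 and WT in 27 cases, and 4 members (SAUR9, SAUR30, SAUR41 and SAUR72) were called higher in all 3 genotypes. The share of all genes tested that was called alike in all 3 genotypes was not computed. It cannot exceed the smallest share in a single genotype, 26.0% for lower (uap1-2) and 25.8% for higher (WT). SAUR8, SAUR12, SAUR36, SAUR49, SAUR51 and SAUR66 were called in none. The remaining tested members were called in some genotypes only: SAUR32 lower in uap1-1, SAUR54 lower in uap1-2 and WT, SAUR55 lower in both mutants, SAUR59 lower in WT, SAUR76 lower in uap1-1 and WT, and SAUR71 higher in both mutants. A call in one genotype and not in another does not show a difference between them, and the tests of that difference are given with the mutants.

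**Figure D2:**
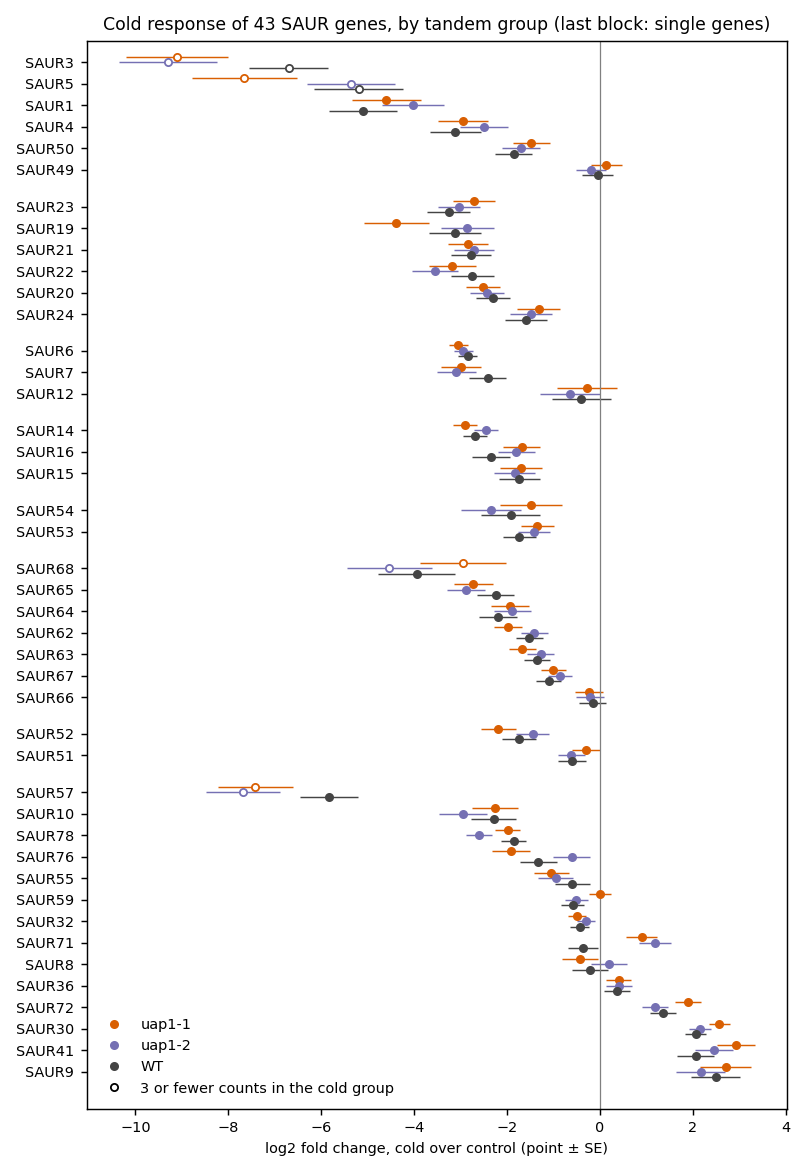
Log2 fold change of cold over control (x axis, point ± SE) for the 43 tested SAUR genes in uap1-1, uap1-2 and WT, in blocks of neighbouring genes with single genes last; open points have 3 or fewer counts in the cold group, where the fitted value depends on the prior count. Most genes lie left of 0, SAUR49 and SAUR66 lie near 0 within blocks that fell, and SAUR9, SAUR30, SAUR41 and SAUR72 lie right of 0.

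Members that lie close together were not all called alike, and their upstream sequences are shown here for that reason. There were 7 tandem groups, with neighbouring starts within 50 kb, that held 30 members, and 14 members lay alone. The sequences are the 200 bases before each annotated gene start, read 5′ to 3′ on the gene's strand from the RefSeq genome (TAIR10.1), on which all 44 members have the start and end given in the deposited table. Capitals mark every match, on either strand, to 6 short motifs: TGTCTC and TGTCGG (elements bound by auxin response factors), CACGTG (the G-box), CATGTG (an E-box that PIF factors bind), CGTGCG (a BZR1 element) and CCGAC (the core bound by CBF factors). The reverse complement of CCGAC lies within TGTCGG, so these matches can overlap. SAUR50 of the chromosome 4 group, not shown, fell in all 3 genotypes and had no match to the 6 motifs. SAUR20, SAUR23 and SAUR24 of the chromosome 5 group, also not shown, fell in all 3 genotypes without CATGTG. From the chromosome 4 group, SAUR1 (chr4:16590979-16591178, plus strand), SAUR3 (chr4:16594162-16594361, plus strand), SAUR4 (chr4:16596440-16596639, plus strand) and SAUR5 (chr4:16598758-16598957, plus strand) fell at least 4-fold in all 3 genotypes, while SAUR49 (chr4:16576980-16577179, plus strand) was not called.
SAUR1: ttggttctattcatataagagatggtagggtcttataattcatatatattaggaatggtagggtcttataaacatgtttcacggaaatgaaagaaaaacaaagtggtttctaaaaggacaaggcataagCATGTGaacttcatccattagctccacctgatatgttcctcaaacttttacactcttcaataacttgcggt
SAUR3: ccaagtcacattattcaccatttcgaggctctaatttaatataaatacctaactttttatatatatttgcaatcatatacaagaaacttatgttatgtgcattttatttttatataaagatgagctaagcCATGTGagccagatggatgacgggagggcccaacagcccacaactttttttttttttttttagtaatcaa
SAUR4: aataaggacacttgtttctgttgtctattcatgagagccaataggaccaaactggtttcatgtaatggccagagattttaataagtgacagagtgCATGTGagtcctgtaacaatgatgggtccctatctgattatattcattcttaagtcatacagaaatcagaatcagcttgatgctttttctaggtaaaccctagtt
SAUR5: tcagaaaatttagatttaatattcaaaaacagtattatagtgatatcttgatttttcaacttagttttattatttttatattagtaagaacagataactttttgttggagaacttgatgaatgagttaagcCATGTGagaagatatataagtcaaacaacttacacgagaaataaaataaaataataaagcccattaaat
SAUR49: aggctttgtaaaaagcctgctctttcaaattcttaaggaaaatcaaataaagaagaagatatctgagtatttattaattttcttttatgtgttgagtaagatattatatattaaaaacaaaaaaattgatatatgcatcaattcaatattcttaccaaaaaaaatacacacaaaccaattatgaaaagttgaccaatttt

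From the chromosome 1 group, SAUR65 (chr1:10308247-10308446, minus strand) fell and SAUR66 (chr1:10320811-10321010, plus strand) was not called, and SAUR30 (chr5:21771611-21771810, plus strand), a gene with no near neighbour in the list, rose.
SAUR65: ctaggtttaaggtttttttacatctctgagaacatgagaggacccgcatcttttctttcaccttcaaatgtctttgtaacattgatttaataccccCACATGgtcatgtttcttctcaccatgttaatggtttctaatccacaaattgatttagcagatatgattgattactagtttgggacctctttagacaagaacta
SAUR66: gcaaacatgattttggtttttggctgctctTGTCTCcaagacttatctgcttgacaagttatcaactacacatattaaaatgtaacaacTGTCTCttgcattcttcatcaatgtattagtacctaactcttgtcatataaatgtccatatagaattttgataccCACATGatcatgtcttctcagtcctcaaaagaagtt
SAUR30: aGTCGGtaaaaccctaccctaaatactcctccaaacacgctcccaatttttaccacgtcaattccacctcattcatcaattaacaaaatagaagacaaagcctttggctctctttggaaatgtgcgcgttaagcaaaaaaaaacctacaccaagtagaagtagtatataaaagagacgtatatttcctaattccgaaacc

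The E-box CATGTG was found upstream of 20 of the 44 members (45.5%), whereas 9.17% of the 21319 tested genes with a 200-base upstream sequence held it. It stood upstream of 16 of the 30 members that fell in WT, 1 of the 4 that rose (SAUR9) and 3 of the 9 that were not called (SAUR8, SAUR51 and SAUR66). By position, it was present in all 7 genes of the chromosome 1 group SAUR62 to SAUR67, in 4 of 7 of the chromosome 4 group SAUR49 to SAUR5, in 3 of 6 of the chromosome 5 group SAUR19 to SAUR24, and in 2 of the 14 single genes. Neighbouring copies share sequence, so these are not independent counts. The median log2 fold change of cold over control was -2.78, -2.48 and -2.47 in uap1-1, uap1-2 and WT for the 20 tested members with it, and -1.35, -1.41 and -1.59 for the 23 without it. The 14 single genes, most of them without it, had medians of -0.22, -0.05 and -0.40 in the same genotypes. Motif and gene position therefore cannot be told apart in these medians.

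The other motifs were less common. TGTCTC was upstream of 7 members (15.9%, against 8.68% of genes tested): SAUR62, SAUR66, SAUR67, SAUR7, SAUR15, SAUR20 and SAUR22. The window upstream of SAUR7 lies wholly inside SAUR6 on the same strand, so its matches are within that gene. CCGAC was upstream of 2 (4.55%, against 10.8%), SAUR63 and SAUR30, and the SAUR63 match is part of its TGTCGG. That element was upstream of 1 member (2.27%), SAUR63, against 3.77% of genes tested. The G-box was upstream of SAUR59 alone (6.35% of genes tested), and the BZR1 element of SAUR57 alone (1.42%). A match is a run of letters in this window and says nothing about binding.

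The gene bodies are compact. For 42 of the 44 members (95.5%) the exonic length equals the whole span from start to end, which was true of 18.3% of all genes tested. The median exonic length was 872 bases for the members and 1733 bases for the genes tested. Near-identical copies can share reads: of all positions in SAUR63, 9.93% began a 150-base word found elsewhere in the genome, and the share was 8.23% in SAUR67, 1.9% in SAUR62 and 0 in the others. For 31-base words the share was 40.2% in SAUR63, 46.8% in SAUR67 and 34.6% in SAUR62. In the chromosome 5 group it ran from 9.87% (SAUR23) to 39.6% (SAUR19), and in the remaining members it was at most 7.25%. How reads from such shared stretches were assigned was not checked. SAUR63 and SAUR64 overlap AT1G29435, SAUR8 overlaps AT2G16575 and SAUR7 overlaps AT2G21195, all on the opposite strand, and SAUR7 overlaps SAUR6 on the same strand, so counts of these genes are uncertain.

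The chromosome 4 group of 7 genes, SAUR49 (AT4G34750), SAUR50 (AT4G34760), SAUR1 (AT4G34770), SAUR2 (AT4G34780), SAUR3 (AT4G34790), SAUR4 (AT4G34800) and SAUR5 (AT4G34810) in order along chr4:16577180-16599568, held some of the deepest falls. SAUR1, SAUR3, SAUR4, SAUR5 and SAUR50 fell in all 3 genotypes, SAUR49 was not called, and SAUR2 was not tested, with 4, 2 and 2 counts over the 4 control libraries of uap1-1, uap1-2 and WT. SAUR50, which with SAUR16 (AT4G38860) takes part in the light-driven opening of cotyledons, had the highest mean level of the group. SAUR50 stood at 20.4, 10.2, 13 and 12.1 TMM-scaled FPKM in cold libraries, against 25.8, 65.8, 34.2 and 28.8 in control libraries of uap1-1. For uap1-2 the levels were 18.1, 13.4, 13.2 and 9.91 TMM-scaled FPKM in cold libraries, against 56.6, 43.8, 43.6 and 32.9 in control libraries. SAUR50 in WT measured 17.8, 12, 19.6 and 7.04 TMM-scaled FPKM in cold libraries, against 91.2, 61.5, 16.8 and 35.1 in control libraries. Cold and control libraries of SAUR50 did not overlap in the mutants, and in WT they did, because control replicate 3 lay below cold replicates 1 and 3. The SAUR50 log2 fold changes were -1.48 ± 0.40 in uap1-1, -1.69 ± 0.40 in uap1-2 and -1.86 ± 0.40 in WT, with edgeR adjusted p of 0.00349, 0.00119 and 0.000488.

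SAUR3 was close to absent in the cold. In uap1-1, SAUR3 had 0, 0, 0 and 0 TMM-scaled FPKM in cold libraries, against 1.93, 7.76, 3 and 3.32 in control libraries. SAUR3 in uap1-2 measured 0, 0, 0 and 0 TMM-scaled FPKM in cold libraries, against 4.2, 6.42, 4.99 and 2.7 in control libraries. WT seedlings gave 0.0596, 0, 0.062 and 0 TMM-scaled FPKM in cold libraries, against 2.48, 8.5, 1.61 and 3.36 in control libraries. Every control library held it and 10 of the 12 cold libraries had a count of 0. Summed over 4 libraries, SAUR3 had 0 counts in uap1-1 cold, against 291 in uap1-1 control, which with a floor of 3 counts over the group is at least 74.8-fold lower. The uap1-2 counts were 0 in the cold, against 373 in control, at least 103.0-fold lower. WT had 2 counts in the cold, against 281 in control, with control higher by a ratio of 129.0 and a 95% exact interval of 35.4 to 1070 that covers counting error only. The WT log2 fold change of SAUR3 was -6.70, and -6.02 without WT control replicate 2. SAUR5 had 0, 1 and 1 counts in uap1-1, uap1-2 and WT cold, against 107, 73 and 57 in control. It was at least 27.5-fold lower in uap1-1 cold, and the ratio of control over cold was 60.3 in uap1-2 (10.5 to 2410) and 52.3 in WT (9.02 to 2100). The lone cold counts of SAUR5 lay in replicate 1 of uap1-2 and of WT, and without these libraries the fitted log2 values were -6.99 and -6.84, against -5.36 and -5.19 with them.

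SAUR1 and SAUR4 also fell in all 3 genotypes. SAUR1 averaged 0.109 ± 0.098, 0.198 ± 0.0552 and 0.1 ± 0.16 TMM-scaled FPKM in uap1-1, uap1-2 and WT cold, against 2.89 ± 2.28, 3.32 ± 1.06 and 3.73 ± 1.81 in control (SD, n = 4). Its log2 fold changes were -4.59 ± 0.74 in uap1-1, -4.02 ± 0.66 in uap1-2 and -5.10 ± 0.73 in WT. For SAUR4 they were -2.94 ± 0.54 in uap1-1, -2.50 ± 0.52 in uap1-2 and -3.11 ± 0.54 in WT. Leaving out WT cold replicate 3 moved the WT value of SAUR1 to -6.94, and leaving out uap1-1 control replicate 2 moved its uap1-1 value to -3.91. The uap1-1 value of SAUR4 was -3.56 without uap1-1 cold replicate 1.

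SAUR49, at the end of this group and chosen after its values were seen, was not called in any genotype. SAUR49 stood at 22.4, 9.76, 11.6 and 12.4 TMM-scaled FPKM in cold libraries, against 10.9, 19.6, 11.6 and 8.64 in control libraries of uap1-1. Its uap1-2 levels were 16.6, 9.02, 11.1 and 9.82 TMM-scaled FPKM in cold libraries, against 15.1, 13.1, 14.3 and 10.8 in control libraries. For WT the levels were 14, 11.4, 15.7 and 6.81 TMM-scaled FPKM in cold libraries, against 19.9, 13, 5.89 and 10.8 in control libraries. The cold and control ranges of SAUR49 overlapped in every genotype, and its log2 fold changes were 0.14 ± 0.33 in uap1-1, -0.19 ± 0.33 in uap1-2 and -0.05 ± 0.33 in WT. The edgeR adjusted p were 0.734, 0.644 and 0.912. Of the summed level of the 7 genes, SAUR49 made up 38.8% to 50.4% in cold libraries, against 13.3% to 24.0% in control libraries. The next gene along, SAUR50, starts 5.0 kb away and fell in all 3 genotypes.

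**Figure D3:**
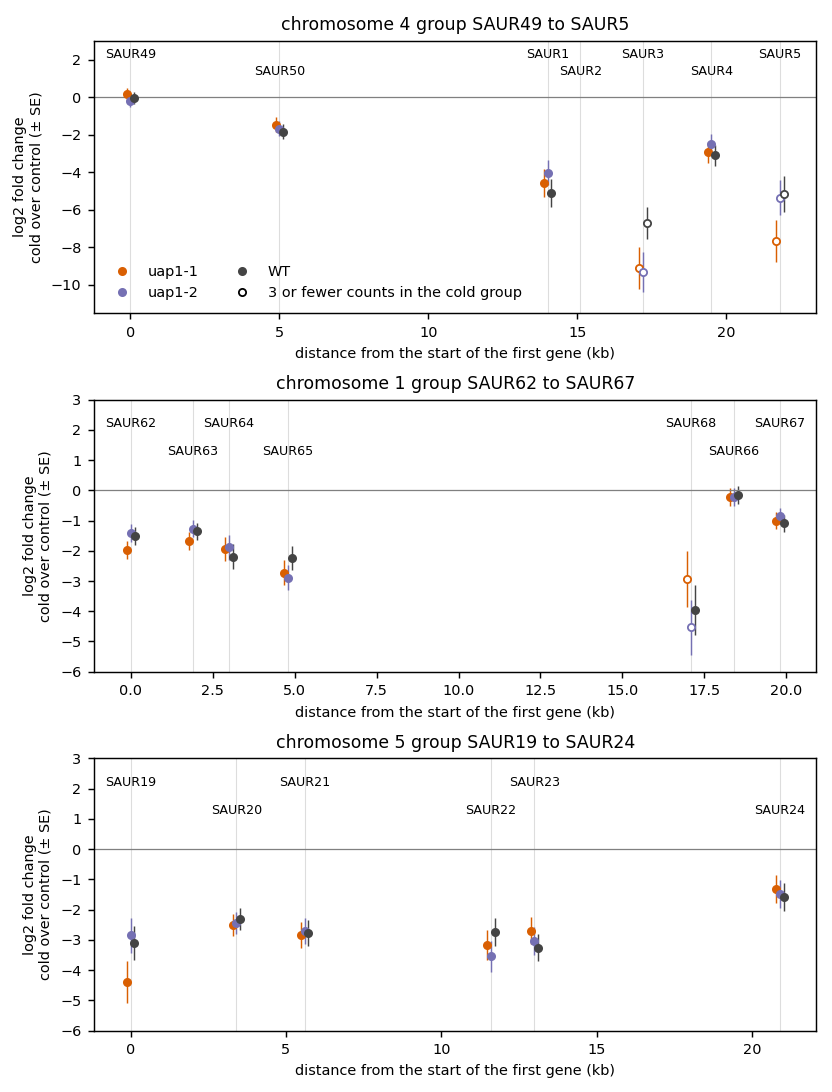
Log2 fold change of cold over control (y axis, point ± SE) along the 3 largest tandem groups, by distance of each gene start from the first (x axis, kb), in uap1-1, uap1-2 and WT; open points have 3 or fewer counts in the cold group and SAUR2 has no value. SAUR49 and SAUR66 lie near 0 beside genes that fell.

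In the chromosome 1 group, 6 of the 7 genes fell in all 3 genotypes: SAUR62 (AT1G29430), SAUR63 (AT1G29440), SAUR64 (AT1G29450), SAUR65 (AT1G29460), SAUR67 (AT1G29510) and SAUR68 (AT1G29490). The median log2 fold change of the group was -1.94 in uap1-1, -1.41 in uap1-2 and -1.52 in WT. SAUR63, known to promote the elongation of hypocotyls and stamen filaments, had the highest mean level. In uap1-1, SAUR63 had 4.79, 4.06, 3.46 and 3.07 TMM-scaled FPKM in cold libraries, against 11.7, 14, 10.6 and 12.7 in control libraries. In uap1-2 it had 8.46, 3.57, 5.41 and 3.99 TMM-scaled FPKM in cold libraries, against 11.9, 14.5, 13.8 and 11.9 in control libraries. WT levels of SAUR63 were 7.21, 6.2, 7.1 and 3.87 TMM-scaled FPKM in cold libraries, against 17.2, 23.6, 8.28 and 13.4 in control libraries. No cold library of SAUR63 reached its control range in the same genotype. Its log2 fold changes were -1.67 ± 0.29 in uap1-1, -1.28 ± 0.28 in uap1-2 and -1.35 ± 0.28 in WT, with edgeR adjusted p of 4.43e-05, 0.000618 and 0.000319.

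SAUR68 was the lowest of this group and changed the most in WT. SAUR68 stood at 0, 0, 0.259 and 0 TMM-scaled FPKM in cold libraries, against 0.19, 1.28, 0.45 and 0.248 in control libraries of uap1-1. For uap1-2 the levels were 0, 0, 0.0674 and 0.0717 TMM-scaled FPKM in cold libraries, against 0.864, 1.06, 1.36 and 0.78 in control libraries. In WT it had 0.141, 0.0714, 0.0732 and 0 TMM-scaled FPKM in cold libraries, against 1.16, 2.3, 0.444 and 1.12 in control libraries. It had 3, 2 and 4 counts over the cold libraries of uap1-1, uap1-2 and WT, against 33, 69 and 74 over the control libraries. In uap1-1 the ratio of control over cold was 8.48, with a counting interval of 2.66 to 43.2. The uap1-1 log2 fold change was -2.94. The call was lost without control replicate 2 (-2.13, edgeR adjusted p = 0.058), and the value was -5.99 (adjusted p = 0.00131) without cold replicate 3, which held all its cold counts.

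SAUR65 showed log2 fold changes of -2.72 ± 0.42 in uap1-1, -2.89 ± 0.41 in uap1-2 and -2.24 ± 0.39 in WT, SAUR64 of -1.94 in uap1-1, -1.88 in uap1-2 and -2.19 in WT, SAUR62 of -1.98 in uap1-1, -1.41 in uap1-2 and -1.52 in WT, and SAUR67 of -1.003 in uap1-1, -0.86 in uap1-2 and -1.10 in WT. SAUR66 (AT1G29500), which starts between SAUR68 and SAUR67 and was chosen after its values were seen, was not called. In uap1-1, SAUR66 had 4.24, 7.14, 8.31 and 6.1 TMM-scaled FPKM in cold libraries, against 5.3, 11.4, 5.5 and 8.18 in control libraries. SAUR66 in uap1-2 measured 8.31, 7.04, 6.86 and 6.31 TMM-scaled FPKM in cold libraries, against 7.27, 8.52, 10.4 and 6.71 in control libraries. SAUR66 in WT measured 10.3, 10.7, 7.81 and 4.98 TMM-scaled FPKM in cold libraries, against 7.75, 15, 5.46 and 9.62 in control libraries. The groups overlapped in each genotype, and the SAUR66 log2 fold changes were -0.23 ± 0.30 in uap1-1, -0.21 ± 0.30 in uap1-2 and -0.16 ± 0.29 in WT, with edgeR adjusted p of 0.531, 0.578 and 0.672. SAUR66 made up 25.6% to 38.6% of the summed level of the 7 genes in cold libraries, against 12.3% to 19.3% in control libraries.

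All 6 genes of the chromosome 5 group, SAUR19 (AT5G18010) to SAUR24 (AT5G18080), fell in all 3 genotypes. SAUR19 is the member whose protein was first shown to inhibit PP2C.D phosphatases, and its close relatives promote cell expansion in seedlings. The group's median log2 fold change was -2.77 in uap1-1, -2.78 in uap1-2 and -2.76 in WT. SAUR21 (AT5G18030) had the highest mean level. SAUR21 stood at 2.98, 1.43, 2.48 and 2.27 TMM-scaled FPKM in cold libraries, against 11.6, 23.7, 15.1 and 14.7 in control libraries of uap1-1. Its uap1-2 levels were 4.57, 1.56, 2.64 and 2.06 TMM-scaled FPKM in cold libraries, against 21, 15.3, 18.9 and 16 in control libraries. WT seedlings gave 4.95, 1.54, 4.98 and 1.16 TMM-scaled FPKM in cold libraries, against 31.1, 30.2, 11.2 and 14.9 in control libraries. Cold values stayed below control values in each genotype, and the log2 fold changes were -2.84 ± 0.44 in uap1-1, -2.71 ± 0.43 in uap1-2 and -2.78 ± 0.43 in WT with edgeR adjusted p of 9.31e-06, 1.44e-05 and 8.87e-06.

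SAUR23 (AT5G18060) had the largest WT change of the 6. In uap1-1, SAUR23 had 1.27, 0.562, 1.07 and 0.987 TMM-scaled FPKM in cold libraries, against 5.13, 8.88, 4.66 and 6.43 in control libraries. In uap1-2 it had 1.5, 0.129, 0.837 and 0.653 TMM-scaled FPKM in cold libraries, against 6.11, 6.01, 7.45 and 6.52 in control libraries. For WT the levels were 0.991, 0.532, 1.46 and 0.335 TMM-scaled FPKM in cold libraries, against 9.2, 12, 4.68 and 6.3 in control libraries. Its cold and control libraries did not overlap, and its log2 fold changes were -2.70 ± 0.45 in uap1-1, -3.04 ± 0.45 in uap1-2 and -3.26 ± 0.45 in WT. SAUR19 averaged 0.12, 0.341 and 0.465 TMM-scaled FPKM in uap1-1, uap1-2 and WT cold, against 2.48, 2.52 and 4.12 in control. SAUR20 (AT5G18020) gave log2 fold changes of -2.51 in uap1-1, -2.44 in uap1-2 and -2.30 in WT, and SAUR22 (AT5G18050) of -3.18 in uap1-1, -3.55 in uap1-2 and -2.75 in WT; the uap1-1 value of SAUR22 was -3.91 without uap1-1 cold replicate 1. SAUR24 was the least lowered, at -1.32 in uap1-1, -1.48 in uap1-2 and -1.59 in WT, and in uap1-1 it lost its call without control replicate 2, cold replicate 2 or cold replicate 4 (edgeR adjusted p = 0.0558, 0.0505 and 0.0535).

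The group SAUR14 (AT4G38840), SAUR15 (AT4G38850) and SAUR16 held SAUR16, which had the highest mean over the 24 libraries of all 44 members. SAUR16 averaged 63.3 ± 24.2, 80.1 ± 21.8 and 94.5 ± 50.2 TMM-scaled FPKM in the control libraries of uap1-1, uap1-2 and WT (SD, n = 4). SAUR16 stood at 21.5, 19, 18.5 and 20 TMM-scaled FPKM in cold libraries, against 45.5, 98.7, 58.8 and 50.4 in control libraries of uap1-1. For uap1-2 the levels were 31.7, 23.8, 17.2 and 19.2 TMM-scaled FPKM in cold libraries, against 79.3, 74.8, 109.0 and 57 in control libraries. WT levels of SAUR16 were 21.1, 18.9, 28.8 and 5.53 TMM-scaled FPKM in cold libraries, against 142.0, 129.0, 33.1 and 74.4 in control libraries. The groups did not overlap in any genotype for SAUR16, whose log2 fold changes were -1.68 ± 0.40 in uap1-1, -1.80 ± 0.40 in uap1-2 and -2.34 ± 0.41 in WT. In uap1-1, SAUR14 had 7.49, 11.2, 8.45 and 6.66 TMM-scaled FPKM in cold libraries, against 55.6, 81.3, 58.4 and 59.1 in control libraries. SAUR14 in uap1-2 measured 16.6, 13.5, 13.1 and 11.5 TMM-scaled FPKM in cold libraries, against 80.9, 67, 72.2 and 80.2 in control libraries. In WT it had 12.9, 10.3, 11.2 and 3.91 TMM-scaled FPKM in cold libraries, against 69.2, 73.6, 42.8 and 63.7 in control libraries. SAUR14 fell with a small SE of the fit, at -2.90 ± 0.26 in uap1-1, -2.45 ± 0.25 in uap1-2 and -2.70 ± 0.26 in WT and edgeR adjusted p of 3.51e-09, 3.44e-08 and 9.37e-09. Its libraries were less even, with WT cold replicate 4 (3.91) well below the rest of its group. SAUR15, long used as the auxin-inducible marker SAUR-AC1, fell by 1.70, 1.83 and 1.74 on the log2 scale in uap1-1, uap1-2 and WT.

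On chromosome 2, SAUR6 (AT2G21210) and SAUR7 (AT2G21200) fell and SAUR12 (AT2G21220) was not called. SAUR6, the most abundant of these, had the largest change of the 3 in uap1-1 and WT and the smallest adjusted p of the 43 tested members. SAUR6 stood at 3.11, 4.22, 3.18 and 4.04 TMM-scaled FPKM in cold libraries, against 24.3, 36.2, 29.8 and 30.6 in control libraries of uap1-1. Its uap1-2 levels were 3.47, 4.41, 5.42 and 5.04 TMM-scaled FPKM in cold libraries, against 33.2, 28.6, 44.1 and 35.3 in control libraries. SAUR6 in WT measured 4.78, 3.76, 5.04 and 3.09 TMM-scaled FPKM in cold libraries, against 35.8, 34.2, 21.3 and 29.1 in control libraries. Its cold values were tightly grouped and far below control, with log2 fold changes of -3.05 ± 0.21 in uap1-1, -2.94 ± 0.20 in uap1-2 and -2.85 ± 0.20 in WT and edgeR adjusted p of 3e-11, 5.2e-11 and 8.14e-11. SAUR7, which overlaps SAUR6, gave -2.98 in uap1-1, -3.09 in uap1-2 and -2.41 in WT. SAUR12 gave -0.28 ± 0.64 in uap1-1, -0.65 ± 0.64 in uap1-2 and -0.40 ± 0.64 in WT, at mean levels of 0.721, 0.561 and 0.689 TMM-scaled FPKM in uap1-1, uap1-2 and WT cold, against 0.882, 0.888 and 0.925 in control.

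Both chromosome 1 pairs held 1 clearer and 1 less clear change. In uap1-1, SAUR53 (AT1G19840) had 4.2, 2.37, 3.63 and 1.93 TMM-scaled FPKM in cold libraries, against 6.45, 10.9, 7.87 and 5.54 in control libraries. In uap1-2 it had 3.84, 2.42, 2.29 and 3.46 TMM-scaled FPKM in cold libraries, against 10.8, 7.97, 8.02 and 5.23 in control libraries. WT seedlings gave 3.48, 2.21, 3.17 and 1.7 TMM-scaled FPKM in cold libraries, against 11, 11.5, 3.14 and 9.66 in control libraries. SAUR53 fell, at -1.35 ± 0.35 in uap1-1, -1.41 ± 0.35 in uap1-2 and -1.74 ± 0.35 in WT, and its groups overlapped in WT. SAUR54 (AT1G19830) stood at 1.54, 0.15, 0.488 and 0.148 TMM-scaled FPKM in cold libraries, against 1.43, 1.78, 1.14 and 1.96 in control libraries of uap1-1. For uap1-2 the levels were 0.676, 0.695, 0.98 and 0.0579 TMM-scaled FPKM in cold libraries, against 4.19, 3.38, 1.3 and 3.47 in control libraries. For WT the levels were 0.853, 0.635, 0.947 and 0.457 TMM-scaled FPKM in cold libraries, against 5.42, 1.38, 0.975 and 3.37 in control libraries. SAUR54, its neighbour 20.2 kb away, gave -1.48 ± 0.66 in uap1-1, -2.34 ± 0.64 in uap1-2 and -1.92 ± 0.63 in WT, with edgeR adjusted p of 0.0622, 0.00384 and 0.0132. In WT the SAUR54 call was lost without control replicate 1 (log2 fold change -1.38, edgeR adjusted p = 0.0747), and in uap1-1 a call was gained without cold replicate 1 (-2.59, adjusted p = 0.00448).

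In the other pair, SAUR52 (AT1G75590) fell and SAUR51 (AT1G75580) was not called. In uap1-1, SAUR52 had 1.61, 0.735, 0.423 and 0.321 TMM-scaled FPKM in cold libraries, against 3.06, 3.68, 3.79 and 3.53 in control libraries. SAUR52 in uap1-2 measured 1.71, 0.657, 1.32 and 1.66 TMM-scaled FPKM in cold libraries, against 2.87, 4.34, 3.87 and 3.56 in control libraries. WT levels of SAUR52 were 1.58, 1.5, 1.03 and 0.906 TMM-scaled FPKM in cold libraries, against 6.05, 4.14, 2.8 and 3.85 in control libraries. No cold library reached the control range, and the SAUR52 log2 fold changes were -2.19 ± 0.38 in uap1-1, -1.44 ± 0.36 in uap1-2 and -1.74 ± 0.36 in WT; the uap1-1 value was -2.78 without uap1-1 cold replicate 1. SAUR51 stood at 6.72, 3.46, 5.76 and 2.24 TMM-scaled FPKM in cold libraries, against 5.36, 6.43, 5.45 and 5.13 in control libraries of uap1-1. Its uap1-2 levels were 5.11, 4.27, 4.36 and 2.78 TMM-scaled FPKM in cold libraries, against 9.48, 4.98, 5.26 and 5.51 in control libraries. In WT it had 3.84, 4.15, 5.42 and 3.02 TMM-scaled FPKM in cold libraries, against 8.47, 5.28, 4.51 and 6.6 in control libraries. These ranges overlapped in each genotype, and SAUR51 gave -0.30 ± 0.30 in uap1-1, -0.61 ± 0.30 in uap1-2 and -0.59 ± 0.30 in WT with edgeR adjusted p of 0.4, 0.0865 and 0.0945. With libraries scaled by their totals alone, SAUR51 was called lower in uap1-1, uap1-2 and WT (adjusted p = 0.0315, 0.0192 and 0.0241).

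Among the 14 single genes, SAUR57 (AT3G53250) fell most. In uap1-1, SAUR57 had 0, 0, 0.0645 and 0 TMM-scaled FPKM in cold libraries, against 2.22, 6.05, 3.07 and 3.48 in control libraries. In uap1-2 it had 0.0521, 0, 0 and 0 TMM-scaled FPKM in cold libraries, against 2.37, 3.68, 7.15 and 2.97 in control libraries. SAUR57 in WT measured 0, 0.213, 0.164 and 0 TMM-scaled FPKM in cold libraries, against 6.23, 8.19, 3.85 and 4.94 in control libraries. The cold libraries were at or near 0 and the control libraries were not. Over 4 libraries SAUR57 had 1 count in uap1-1 cold, against 309 in uap1-1 control, a ratio of control over cold of 238.0 (95% counting interval 42.4 to 9440). In uap1-2 it had 1, against 363, a ratio of 300.0 (53.5 to 11900). In WT it had 7, against 456, with a log2 fold change of -5.82 ± 0.62 that was -6.55 without WT cold replicate 2. The fitted mutant values were -7.42 in uap1-1 and -7.68 in uap1-2, and -9.19 and -9.30 without the library that held the lone count, uap1-1 cold replicate 3 and uap1-2 cold replicate 1.

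SAUR32 (AT2G46690), with the highest mean level of the single genes and known from apical hook development, was called in uap1-1 alone. SAUR32 stood at 28.9, 33.7, 31.5 and 37.1 TMM-scaled FPKM in cold libraries, against 42.2, 52.9, 47.8 and 40.9 in control libraries of uap1-1. For uap1-2 the levels were 36.6, 32.9, 32.2 and 41.6 TMM-scaled FPKM in cold libraries, against 43.5, 47, 51.7 and 33.6 in control libraries. WT seedlings gave 34.4, 36.1, 36 and 21.3 TMM-scaled FPKM in cold libraries, against 55.1, 53.1, 26.2 and 38.8 in control libraries. These ranges overlapped in uap1-2 and WT but not in uap1-1, and the log2 fold changes were -0.49 ± 0.20 in uap1-1, -0.29 ± 0.20 in uap1-2 and -0.44 ± 0.20 in WT, with edgeR adjusted p of 0.0412, 0.22 and 0.0656. The uap1-1 call was lost without any of 5 libraries, control replicates 2 and 3 and cold replicates 1, 2 and 3, with adjusted p of 0.105, 0.0787, 0.102, 0.056 and 0.0822. In WT it was gained without control replicate 3 (-0.62, adjusted p = 0.00589).

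Of the other single genes, SAUR10 (AT2G18010) and SAUR78 (AT1G72430) fell in all 3 genotypes. SAUR10 gave -2.26 in uap1-1, -2.95 in uap1-2 and -2.28 in WT, and SAUR78, whose protein binds ethylene receptors, gave -1.98 in uap1-1, -2.60 in uap1-2 and -1.85 in WT. SAUR76 (AT5G20820), a relative of SAUR78, gave -1.92 in uap1-1, -0.60 in uap1-2 and -1.33 in WT, with edgeR adjusted p of 0.000339, 0.211 and 0.00759. SAUR55 (AT5G50760) gave -1.05 in uap1-1, -0.95 in uap1-2 and -0.59 in WT; its uap1-1 call was lost without control replicate 2 or cold replicates 2 or 4 (adjusted p = 0.0826, 0.0586 and 0.0574), and its uap1-2 call without control replicates 2 or 3 or cold replicates 2 or 3 (0.057, 0.214, 0.115 and 0.121). SAUR59 (AT3G60690) gave -0.00 in uap1-1, -0.50 in uap1-2 and -0.59 in WT, and its WT call did not hold without control replicates 1, 2 or 4 (0.0995, 0.117 and 0.0514) or cold replicates 1, 3 or 4 (0.0663, 0.0937 and 0.14). In uap1-2, SAUR59 was called lower without control replicate 4 (0.0497) or cold replicate 4 (0.0452). SAUR8 (AT2G16580) gave -0.43 in uap1-1, 0.19 in uap1-2 and -0.21 in WT. SAUR36 (AT2G45210), a gene of leaf senescence, gave 0.40 in uap1-1, 0.41 in uap1-2 and 0.37 in WT and was called higher in uap1-1 only without control replicate 2 (0.74, adjusted p = 0.0217).

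The members that rose in all 3 genotypes, chosen for description after their values were seen, were all single genes. SAUR30 (AT5G53590) had the highest mean level of all 44 in the cold. In uap1-1, SAUR30 had 59.9, 39.1, 43.4 and 63.6 TMM-scaled FPKM in cold libraries, against 9.95, 8.95, 7.75 and 7.92 in control libraries. SAUR30 in uap1-2 measured 40.8, 26.5, 24.9 and 52.5 TMM-scaled FPKM in cold libraries, against 6.84, 8.92, 8.84 and 7.98 in control libraries. For WT the levels were 37.8, 50.8, 46.8 and 36 TMM-scaled FPKM in cold libraries, against 13.8, 9.75, 7.1 and 10.4 in control libraries. Every cold library of SAUR30 exceeded every control library, and its log2 fold changes were 2.57 ± 0.23 in uap1-1, 2.15 ± 0.23 in uap1-2 and 2.06 ± 0.23 in WT, with edgeR adjusted p of 4.26e-09, 6.62e-08 and 1.02e-07. In cold libraries its mean was 51.5, 36.2 and 42.9 TMM-scaled FPKM in uap1-1, uap1-2 and WT, and that of the next member, SAUR32, was 32.8, 35.8 and 31.9, so that in uap1-2 they differed by less than the spread between libraries.

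SAUR41 (AT1G16510) and SAUR72 (AT3G12830) belong to the same subfamily, together with SAUR71 (AT1G56150). SAUR41 stood at 29.2, 10, 15.9 and 21.3 TMM-scaled FPKM in cold libraries, against 1.22, 4.37, 2.16 and 2.29 in control libraries of uap1-1. Its uap1-2 levels were 16.1, 8.78, 9.9 and 11.9 TMM-scaled FPKM in cold libraries, against 2.13, 2.57, 3.25 and 0.55 in control libraries. WT levels of SAUR41 were 14.9, 19.8, 18.7 and 10.1 TMM-scaled FPKM in cold libraries, against 4.39, 3.28, 3.71 and 3.81 in control libraries. The SAUR41 groups did not overlap, with log2 fold changes of 2.93 ± 0.41 in uap1-1, 2.45 ± 0.41 in uap1-2 and 2.06 ± 0.40 in WT and edgeR adjusted p of 2.76e-06, 2.71e-05 and 0.000129. SAUR72 averaged 8.33 ± 2.5, 4.62 ± 0.929 and 6.85 ± 1.73 TMM-scaled FPKM in uap1-1, uap1-2 and WT cold, against 2.23 ± 0.758, 2.04 ± 0.667 and 2.67 ± 0.371 in control (SD, n = 4). Its log2 fold changes were 1.90 ± 0.28 in uap1-1, 1.18 ± 0.28 in uap1-2 and 1.36 ± 0.28 in WT.

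SAUR9 (AT4G36110), another inhibitor of PP2C.D phosphatases, varied more among cold libraries. In uap1-1, SAUR9 had 19.8, 6.39, 22 and 8.64 TMM-scaled FPKM in cold libraries, against 1.26, 3.65, 1.77 and 2.04 in control libraries. In uap1-2 it had 23.6, 7.7, 17.6 and 6.8 TMM-scaled FPKM in cold libraries, against 3.5, 3.78, 2.66 and 2.41 in control libraries. In WT it had 15.2, 16.5, 25.4 and 5.94 TMM-scaled FPKM in cold libraries, against 4.18, 3.75, 0.634 and 2.69 in control libraries. In each genotype all cold libraries still lay above all control libraries. The SAUR9 log2 fold changes were 2.71 ± 0.54 in uap1-1, 2.17 ± 0.52 in uap1-2 and 2.49 ± 0.53 in WT, with edgeR adjusted p of 0.000195, 0.00131 and 0.00039.

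**Figure D4:**
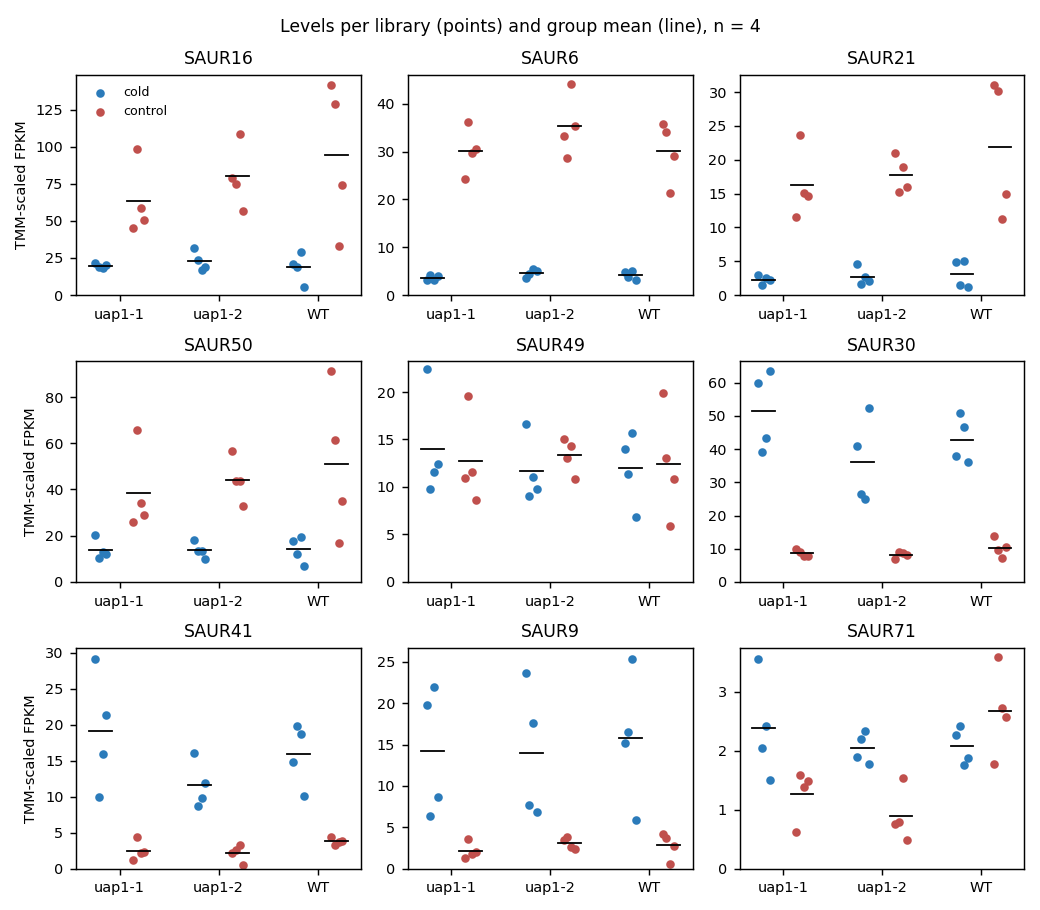
Level of 9 SAUR genes in each library (TMM-scaled FPKM, linear y axis from 0), cold left of control within uap1-1, uap1-2 and WT, with a line at the mean of 4. SAUR16, SAUR6, SAUR21 and SAUR50 are lower in the cold, SAUR49 overlaps, and SAUR30, SAUR41 and SAUR9 are higher. Under control conditions the points of SAUR71 lie lower in both mutants than in WT. That difference was not called by edgeR (adjusted p = 0.359 in uap1-1 and 0.431 in uap1-2).

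Whether these genes differ in the mutant lines was asked by comparing each mutant with WT, and both mutants were set against the same WT libraries. Loss of UAP1 itself was not checked in these lines. No member was called in uap1-1 or uap1-2 against WT, under control conditions or in the cold, when tested with edgeR as above. Over all 21428 genes tested, 1 (0.00467%) was called in uap1-1 control and 0 in the other 3 comparisons, so calls were rare everywhere. At an unadjusted p under 0.05 there was 1 member in uap1-1 control (SAUR71), 1 in uap1-2 control (SAUR71), 3 in uap1-1 cold (SAUR19, SAUR62 and SAUR63) and 3 in uap1-2 cold (SAUR22, SAUR65 and SAUR78), where 9.15%, 5.38%, 2.71% and 4.73% of all genes tested met that rule in the same 4 comparisons. limma on log2(FPKM + 1) called 0 members in each, and of all genes 37 in uap1-1 control and 0 in the other 3. DESeq2 called 0 members apart from 1, SAUR71, in uap1-2 control, and of all genes 35 in uap1-1 control, 13 in uap1-2 control and 0 in the cold. The median SE of these log2 fold changes was 0.37 to 0.40.

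Most members had a mutant estimate slightly below WT, none of them called, and the size of this shift depended on single libraries. The log2 fold change against WT was below 0 for 34 of 43 members in uap1-1 control (median -0.26) and 31 in uap1-2 control (median -0.18), where the median of all genes tested was -0.03 in each. In the cold it was below 0 for 26 members in uap1-1 (median -0.18) and 28 in uap1-2 (median -0.09), where that of all genes tested was -0.01 and 0.02. Without WT control replicate 3 the control counts were 38 (median -0.46) and 40 (median -0.35), and without WT cold replicate 4 the cold counts were 34 (median -0.37) and 33 (median -0.32). Without uap1-1 control replicate 2 the uap1-1 control count was 38 (median -0.42). In the other direction, the control medians were -0.10 in uap1-1 and 0.01 in uap1-2 without WT control replicate 2. The cold medians were -0.03 in uap1-1 and -0.04 in uap1-2 without WT cold replicate 1, and -0.06 and -0.02 without WT cold replicate 3. Over all libraries left out in turn, the member median lay between -0.46 and -0.10 in uap1-1 control, -0.35 and 0.01 in uap1-2 control, -0.37 and -0.03 in uap1-1 cold, and -0.32 and 0.00 in uap1-2 cold. With libraries scaled by their totals, the member medians were -0.07 in each mutant under control conditions and -0.24 and 0.00 in uap1-1 and uap1-2 cold, where those of all genes tested were 0.12 and 0.05 in uap1-1 and uap1-2 control and -0.07 and 0.11 in uap1-1 and uap1-2 cold.

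SAUR71 had the smallest adjusted p of the members under control conditions. It had 0.626, 1.58, 1.39 and 1.49 TMM-scaled FPKM in uap1-1 control and 0.762, 0.788, 1.54 and 0.483 in uap1-2 control, against 1.78, 3.58, 2.73 and 2.57 in WT control. Neither mutant's range reached that of WT. Members whose mutant libraries all lay below all WT libraries were SAUR71 in uap1-1 control (3.20% of genes tested did so), SAUR41 and SAUR71 in uap1-2 control (0.971%), SAUR19 in uap1-1 cold (0.761%) and SAUR78 in uap1-2 cold (1.80%). The log2 fold change was -1.06 ± 0.34 in uap1-1 (edgeR adjusted p = 0.359) and -1.57 ± 0.34 in uap1-2 (edgeR adjusted p = 0.431), and DESeq2 gave -1.58 with an adjusted p of 0.0148 in uap1-2. In the cold the values were 3.55, 2.04, 2.42 and 1.51 in uap1-1 and 1.9, 2.19, 2.34 and 1.78 in uap1-2, against 2.27, 2.42, 1.75 and 1.87 in WT, and they overlapped.

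Cold over control for SAUR71 was 0.90 ± 0.34 in uap1-1, 1.20 ± 0.35 in uap1-2 and -0.36 ± 0.33 in WT on the log2 scale. The uap1-1 call was lost without control replicate 1 (edgeR adjusted p = 0.106), cold replicate 1 (0.129) or cold replicate 3 (0.0515), with libraries scaled by totals (0.218), with limma (0.181) and with a fit to the compared groups alone (0.0675). The difference of the cold response from that of WT did not pass the test in either mutant: it was 1.26 ± 0.47 in uap1-1 (95% interval 0.33 to 2.18, edgeR adjusted p = 0.485) and 1.55 ± 0.48 in uap1-2 (95% interval 0.62 to 2.49, adjusted p = 1).

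For the remaining members, no test of a difference in the cold response was passed. The number called among the 43 was 0 in either mutant by edgeR, DESeq2 and limma, and 1 in each (SAUR71) had an unadjusted p under 0.05, where 8.60% of all genes tested did in uap1-1 and 1.73% in uap1-2. Of all 21428 genes, edgeR and limma called 0 (0%) in either mutant, and DESeq2 called 1 in uap1-1 and 0 in uap1-2. These differences had a median SE of 0.55 on the log2 scale in each mutant. Their median over the members was 0.03 in uap1-1 and 0.07 in uap1-2. Without WT control replicate 3 it was 0.28 and 0.17, and without WT cold replicate 4 it was -0.19 and -0.14. Without uap1-1 control replicate 2 it was 0.23 in uap1-1. edgeR called 0 members in each of these fits, and the sign of the median depended on the library left out. For SAUR6 the uap1-1 difference was -0.20 ± 0.27, with a 95% interval of -0.74 to 0.34. For SAUR14 it was -0.20 ± 0.35 (-0.89 to 0.48), and for SAUR16 it was 0.66 ± 0.55 (-0.42 to 1.75). Such intervals hold the differences compatible with 4 libraries a group and are not limits of detection. At 1.96 SE each way, they can be narrower than the edgeR test implies.

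**Figure D5:**
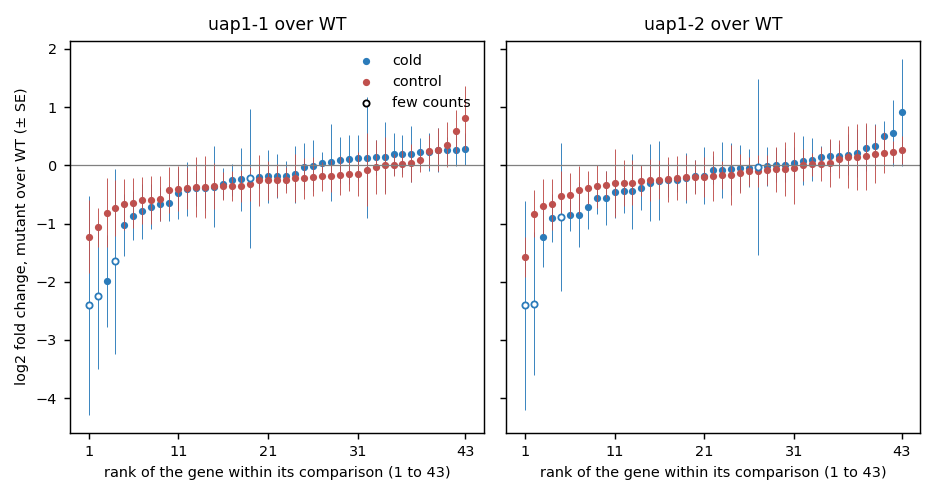
Log2 fold change of uap1-1 over WT (left) and uap1-2 over WT (right) for the 43 tested SAUR genes in cold and control libraries (y axis, point ± SE), ranked within each comparison (x axis); open points have few counts in the groups compared. No gene passed an adjusted p under 0.05 in edgeR's test.

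Other genes annotated with the SAUR name were looked at alongside, 35 loci of which 22 were tested. Of these, 8 fell and 5 rose in uap1-1, 8 fell and 5 rose in uap1-2, and 8 fell and 3 rose in WT. Over all genes tested, 29.2% fell and 26.7% rose in uap1-1, 26.0% and 26.5% in uap1-2, and 28.4% and 25.8% in WT, and the counts of this list and of those that follow stand beside these shares. SAUR29, SAUR31 and SAUR28 had the smallest adjusted p in WT, with log2 fold changes of -1.82 ± 0.28, -1.36 ± 0.26 and -2.79 ± 0.54. The median over the 22 was -0.06 in uap1-1, -0.33 in uap1-2 and -0.22 in WT, against -1.70, -1.69 and -1.74 over the 43 members.

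PP2C.D phosphatases, which SAUR proteins inhibit, include genes called in each direction in the cold. Over all genes tested the median log2 fold change was -0.07, -0.01 and -0.06 in uap1-1, uap1-2 and WT, to be read beside the medians of the lists. Of 9 PP2C.D phosphatase genes (median log2 fold change 0.57, 0.26 and 0.12 in uap1-1, uap1-2 and WT), 5 rose and 1 fell in uap1-1, 5 rose and 1 fell in uap1-2, and 4 rose and 1 fell in WT. The gene that fell in WT with the smallest adjusted p was AT5G02760, at -4.22 ± 0.26 (edgeR adjusted p = 5.76e-12), while AT4G33920 rose by 2.21 ± 0.17 and AT5G06750 by 1.16 ± 0.19. Of 9 tested AHA genes, which encode the plasma membrane H+-ATPases that these phosphatases act on, 2 rose and 0 fell in uap1-1, 2 rose and 0 fell in uap1-2, and 2 rose and 2 fell in WT, where 26.7%, 26.5% and 25.8% of all genes tested rose in the same genotypes (list median log2 fold change -0.18, -0.02 and -0.02 in uap1-1, uap1-2 and WT). In WT, AHA11 rose by 1.14 ± 0.19 and AHA7 by 1.00 ± 0.29, and AHA4 changed by -0.98 ± 0.31.

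Of the 6 auxin receptor genes of the TIR1/AFB family (median log2 fold change -0.30, -0.64 and -0.69 in uap1-1, uap1-2 and WT), 2 fell in uap1-1, 5 in uap1-2 and 5 in WT, and 0 rose. GRH1 (AFB1) changed by -1.44 ± 0.17, TIR1 by -1.03 ± 0.19 and AFB2 by -0.60 ± 0.14 in WT. Of 15 auxin response factor genes, which encode the factors that bind auxin-responsive promoters (median log2 fold change 0.20, 0.20 and 0.27 in uap1-1, uap1-2 and WT), 6 rose in each genotype, and 2, 2 and 4 fell in uap1-1, uap1-2 and WT; NPH4 (ARF7) changed by 1.48 ± 0.11, ARF8 by 1.56 ± 0.14 and ARF9 by -0.69 ± 0.14 in WT. Of 23 Aux/IAA repressor genes (median log2 fold change -0.17, -0.03 and 0.06 in uap1-1, uap1-2 and WT), 7 rose and 7 fell in uap1-1, 6 rose and 5 fell in uap1-2, and 5 rose and 6 fell in WT, shares close to those of all genes tested. IAA28 changed by 1.87 ± 0.18, IAA4 by -1.70 ± 0.18 and IAA12 by 1.11 ± 0.15 in WT.

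Among genes that set auxin amounts, GH3 genes encode enzymes that conjugate auxin, and of 7 tested (median log2 fold change -0.54, 0.04 and -0.38 in uap1-1, uap1-2 and WT) 1 rose and 3 fell in uap1-1, 1 rose and 3 fell in uap1-2, and 2 rose and 3 fell in WT. GH3.5 changed by -1.51 ± 0.20, GH3.9 by -1.94 ± 0.28 and GH3.6 by -1.18 ± 0.20 in WT. Of 10 TAA and YUC genes of auxin synthesis (median log2 fold change -0.26, 0.16 and -0.04 in uap1-1, uap1-2 and WT), 1 rose and 2 fell in each genotype. With 10 genes, such counts cannot be told from the shares of all genes tested. TAA1 changed by -0.87 ± 0.22, YUC2 by -1.41 ± 0.38 and YUC4 by 1.31 ± 0.45 in WT. Of 13 auxin transport genes (median log2 fold change -0.50, -0.56 and -0.42 in uap1-1, uap1-2 and WT), 4 rose and 7 fell in uap1-1, 3 rose and 7 fell in uap1-2, and 4 rose and 6 fell in WT, where PIN7 changed by -2.28 ± 0.14, ABCB19 by -1.67 ± 0.16 and LAX1 by -1.71 ± 0.17.

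Of 15 growth regulators known to act on SAUR promoters or on the factors that bind them (median log2 fold change -0.12, -0.27 and -0.60 in uap1-1, uap1-2 and WT), 5 rose and 6 fell in uap1-1, 4 rose and 7 fell in uap1-2, and 4 rose and 8 fell in WT, where 26.7%, 26.5% and 25.8% of all genes tested rose and 29.2%, 26.0% and 28.4% fell in the same genotypes. PIF4, a factor that drives SAUR expression in warmth, changed by -2.51 ± 0.16 in uap1-1, -2.65 ± 0.16 in uap1-2 and -2.81 ± 0.16 in WT (edgeR adjusted p = 9.46e-12, 5e-12 and 2.03e-12). HY5, a factor of light-grown development, changed by 2.45 ± 0.16 and HBI1, which promotes cell elongation, by -2.58 ± 0.22 in WT. In no list was a gene called between a mutant and WT by edgeR. What part these genes have in the SAUR changes was not tested.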

How the data were processed

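The authors deposited a table of 32833 genes in which each of 24 libraries has a whole-number count and an FPKM value for every gene. The deposited counts are not normalized, and the deposited FPKM values equal the count over exonic length and library total to within 0.005. HISAT2 2.2.1, HTSeq 0.6.1, cutadapt 1.9.1 and the build TAIR10 appear, among other tools, in the submitters' processing notes, without a role or an order. Strand setting: not given in the sources used here.

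The members, gene lists and tests were chosen with earlier results of these data known. Genes were filtered by filterByExpr (minimum count 10, minimum total 15; 21428 kept), scaled by TMM and fitted with 6 group means (glmQLFit and glmQLFTest, edgeR 4.0.16, R 4.3.3), with Benjamini-Hochberg adjustment, a threshold of 0.05 and a prior count of 0.125. Contrasts were cold against control per genotype, each mutant against WT per condition, and the difference of cold responses. An SE is the fold change over the root of the F statistic, and its 95% interval is 1.96 SE each way. Per library, values are given for the member of highest mean level and that of largest WT cold change in each tandem group and among the single genes, and for other lists the 3 genes of smallest adjusted p in WT. Library totals were 19289385 to 25501547, and replicate pairs differed beyond sampling noise (chi-square per degree of freedom 8.85 to 151). The test was tried on simulated counts. Alternatives were RLE factors, library totals, no filter, DESeq2 1.42.0, limma 3.58.1 on log2(FPKM + 1), a replicate block, a fit to the compared groups and leaving out each library.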

Additional observations from a re-analysis of the deposited data

Results flagged for a closer look

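In 264 groups of 4 libraries (43 members and the summed level, in 6 groups), 18 had a library far from the other 3, where chance gives about 1 in 20 groups for normally distributed values. A group with 3 libraries at 0 and 1 above 0 is always flagged, so that rate does not hold for genes with few counts. Values are TMM-scaled FPKM. In uap1-1 cold, replicate 3 stood apart for SAUR68 (0.259), SAUR12 (1.12) and SAUR57 (0.0645). In uap1-2 cold, replicate 1 stood apart for SAUR36 (14.5), SAUR57 (0.0521), SAUR5 (0.0765) and SAUR22 (0.939). In WT cold, replicate 4 stood apart for SAUR67 (3.25) and SAUR32 (21.3), and replicate 1 for SAUR5 (0.0773). In uap1-1 control, replicate 2 stood apart for SAUR78 (25.3), SAUR4 (9.8) and SAUR14 (81.3), and this library had the highest level of its group for 39 of 43 members. In uap1-2 control, replicate 1 stood apart for SAUR51 (9.48) and replicate 4 for SAUR4 (3.17). In WT control, replicate 2 stood apart for SAUR62 (11.7), replicate 1 for SAUR8 (6.81) and replicate 4 for SAUR55 (4.57). The values of SAUR57 and SAUR5 are single counts in a library whose group is otherwise at 0. SAUR68 in uap1-1 cold likewise had all its 3 counts in 1 library, with the rest of its group at 0. No difference between genotypes in the cold response passed its test.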

How the results depend on the processing

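The counts of members called in the cold kept their direction and stayed within 1.5 times under every alternative listed, and no member's change called in the main comparison turned its sign. Over all alternatives, members lower in the cold numbered 26 to 33 in uap1-1, 27 to 32 in uap1-2 and 28 to 32 in WT. The background moved more under 2 of them. With library totals, 9745, 6998 and 7506 of all 21428 genes tested were lower in uap1-1, uap1-2 and WT. With limma these were 9850, 6955 and 7309, against 6251, 5563 and 6091 in the main fit. Member counts under these settings are to be read beside those numbers. Leaving out 1 library at a time gave 26 to 30 lower and 4 to 6 higher in uap1-1, 28 to 30 lower and 5 higher in uap1-2, 28 to 31 lower and 4 higher in WT, and 0 members called between mutants and WT. With DESeq2, 1 member (SAUR71) was called in uap1-2 against WT under control conditions, against 0 by edgeR; the cause was not tested. Same-numbered libraries of different groups correlated at -0.529 to 0.536 (median 0.027, against 0.007 for other pairs, and 28.3% correlated best with their own number), and in none of the pairs of groups compared did every same-numbered pair exceed 0.1, so the numbers were not taken to pair these libraries. Between uap1-1 cold and uap1-2 cold, which are not compared with each other, all 4 same-numbered pairs did (0.233 to 0.536). With the replicate number as a block, 31 members were lower and 5 higher in uap1-1, 28 and 5 in uap1-2, 29 and 4 in WT, and 0 were called in the mutant comparisons; SAUR59 in WT (adjusted p = 0.0545) and SAUR55 in uap1-2 (0.0652) lost their calls and SAUR54 in uap1-1 (0.0315) gained one. SAUR59 in WT and SAUR32 in uap1-1 lost theirs with RLE factors (0.059 and 0.0622) and with DESeq2 (0.0517 and 0.058), and SAUR55 in uap1-2 with a fit to the compared groups (0.0687). SAUR54 in uap1-1 gained a call with DESeq2 (0.0492), library totals (0.0135) and limma (0.00845). Library totals and limma also gave lower calls to SAUR32 and SAUR59 in uap1-2, SAUR32 in WT, SAUR8 in uap1-1 and SAUR51 in all 3 genotypes. SAUR2, SAUR3, SAUR5, SAUR57 and SAUR68 had too few cold counts for a precise fold change.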
